A study of Homo sapiens with 9 samples.

Results

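DIP2A, DIP2B and DIP2C are the 3 human genes of the disco-interacting protein 2 (DIP2) family. They were taken by symbol and make up 3 of the 23619 genes in the count tables of RKO cells, a human colorectal carcinoma line, with and without targeting of DIP2C. In parental RKO cells all 3 were transcribed, DIP2B most. Levels are counts-per-million (CPM) values. In the knockout clones DIP2C was at 17.4 to 56.3 CPM, against 61.0 and 70.9 CPM in parental cells. DIP2A and DIP2B both lay above their parental libraries in 7 of 7 clones, as did 5.41% of all genes tested. Their mean over the clones was about 1.3-fold the parental mean. None of these differences passed an adjusted p of 0.05 in edgeR's fit of all 9 libraries. The DIP2C difference over all clones passed with DESeq2 on the same libraries, beside 1.96% of all genes tested. It also passed in edgeR, beside 8.95%, once H9-A4 was left out, the DIP2C+/- clone with the highest DIP2C level. The DIP2A and DIP2B differences passed in neither.

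RNA sequencing covered 2 libraries of parental RKO cells, 2 DIP2C-/- clones (E3 and C10) and 5 DIP2C+/- clones (A6-C9, A9-A12, F6-A7, G1-A5 and H9-A4), all grown for 48 h. Fewer DIP2C+/- clones are described in the text of the study than carry that label here, and all that carry it were used. DIP2C had been targeted in exon 9 with a recombinant adeno-associated virus. Its selection cassette was later removed with Cre recombinase, so targeted alleles keep a LoxP site. The study states that part of exon 9 was deleted, that this shifts the reading frame, and that the vector sequence also carries stop codons. According to the study's description both DIP2C-/- clones were made by a further round of targeting in a DIP2C+/- clone that the labels do not name, so the clones are not all independent. Each clone is 1 library, no clone with both DIP2C alleles intact is among the samples, and genotype and cloning therefore cannot be told apart. The labels do not say whether the parental libraries came from separate cultures, so p-values measure the spread between these libraries only.

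DIP2 proteins carry an N-terminal domain predicted to bind DMAP1, the DNA methyltransferase 1 associated protein, and AMP-binding domains of the kind found in acyl-CoA synthetases. DMAP1 is a partner of the maintenance methyltransferase DNMT1 and a subunit of the TIP60 and SRCAP chromatin complexes. DIP2A has been described as a cell-surface receptor for the secreted protein FSTL1, whereas DIP2B and DIP2C have mostly been studied in the nervous system. The question for the family was whether transcripts of DIP2A and DIP2B stood higher where DIP2C was lower.

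The 3 genes lie on different chromosomes and have similar coding sequences. In hg19 coordinates with GENCODE 44 annotation, DIP2A is at chr21:47878804-47989928 on the plus strand, a span of 111.1 kb with 38 exons. DIP2B is at chr12:50898768-51142440 on the plus strand, a span of 243.7 kb, also with 38 exons. DIP2C is the longest, at chr10:320141-735608 on the minus strand, a span of 415.5 kb with 37 exons. Their canonical transcripts of 7350, 8705 and 7885 bases encode proteins of 1571, 1576 and 1556 residues. Protein identity was 75.5% between DIP2A and DIP2C, 73.6% between DIP2B and DIP2C and 72.7% between DIP2A and DIP2B. The longest exact stretch shared by the transcripts of a pair was 35 bases, between DIP2A and DIP2C, and no window of 50 bases was shared by any pair. Reads longer than that could therefore be assigned to 1 member by sequence.

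The targeted exon is shown because it is where the DIP2C alleles were disrupted and because it shows how far apart the paralogs are at the base level. Exon 9 is 92 bases long in all 3 genes and leaves 2 bases over after whole codons. The study describes a deletion of part of the exon, so this remainder does not give the reading frame of the targeted alleles. In DIP2C it lies within the coding sequence at chr10:454866-454957 on the minus strand, starts at codon 353 and has 22.6% of the coding sequence before it. The matching exons are at chr21:47949005-47949096 in DIP2A and chr12:51074455-51074546 in DIP2B, both on the plus strand. In the sequences below, read 5′ to 3′ from the hg19 reference, capitals mark the bases that differ from DIP2C when the exons are laid side by side without gaps.
DIP2C exon 9: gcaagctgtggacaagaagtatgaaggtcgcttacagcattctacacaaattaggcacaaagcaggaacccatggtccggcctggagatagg
DIP2A exon 9: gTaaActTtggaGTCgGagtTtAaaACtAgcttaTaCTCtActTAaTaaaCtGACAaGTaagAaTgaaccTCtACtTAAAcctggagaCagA
DIP2B exon 9: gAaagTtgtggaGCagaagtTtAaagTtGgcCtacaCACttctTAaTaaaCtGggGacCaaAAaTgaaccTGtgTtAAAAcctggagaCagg
DIP2A has the same base as DIP2C at 53 of 92 positions (57.6%) and DIP2B at 62 (67.4%). At the protein level 19 of 31 residues of the exon are shared by DIP2A and DIP2C and 21 of 31 by DIP2B and DIP2C.

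The totals of the count tables were 14772593 to 21486483 per library, with a median of 18751852. At this depth 3 counts, taken as the smallest detectable value, amount to 0.14 to 0.203 CPM, and every value of the 3 genes was far above that floor. The values are estimated counts that are whole multiples of what 1 read is worth for 97.9% to 98.3% of the low values. That worth ran from 0.7109 counts in H9-A4 to 1.11451 in parental 2, so the totals do not give the depth in reads. In reads the libraries ran from 17134452 in parental 2 to 24863791 in G1-A5. All 27 of 27 values of the DIP2 genes came out as whole reads, within a tolerance of 0.05 reads. CPM values below are scaled by TMM factors, which correct for composition and lay between 0.9452 and 1.051. Of the epithelial markers, KRT18 was at 121 to 293 CPM, KRT8 at 7.02 to 21.5 CPM and CDX2, a transcription factor of the gut epithelium, at 15.6 to 19.8 CPM. KRT19, CDH1, VIL1 and LGALS4 stayed below 1 CPM in every library, and EPCAM reached 3.79 CPM at most. Markers of blood, endothelial, stromal and liver cells were all at or below 2.87 CPM.

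DIP2C, the targeted gene, checks the labels. It was at 61.0 and 70.9 CPM in the parental libraries. In the DIP2C-/- clones it was at 17.4 CPM in E3 and 22.8 CPM in C10. In the DIP2C+/- clones it was at 47.0 CPM in F6-A7, 56.3 in H9-A4, 38.9 in A9-A12, 41.7 in G1-A5 and 33.6 in A6-C9. The 3 genotypes did not overlap, and the order followed the number of targeted alleles. Clones were all below both parental libraries for 5.54% of genes tested. The share of genes with the 3 genotypes in this order was not counted.

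The means were 65.9 ± 6.99 CPM (SD, n = 2) in parental cells, 20.1 ± 3.81 (SD, n = 2) in DIP2C-/- and 43.5 ± 8.62 (SD, n = 5) in DIP2C+/- clones. The DIP2C-/- mean was thus 30.5% and the DIP2C+/- mean 66.0% of the parental mean. Single clones ranged from 26.4% to 34.6% of it in DIP2C-/- and from 51.0% in A6-C9 to 85.4% in H9-A4 in DIP2C+/-. The DIP2C transcript was therefore still present in both DIP2C-/- clones, as 360 reads in E3 and 428 in C10. These are counts over the whole gene. Reads over exon 9 alone were not analysed here, so transcripts of targeted and untargeted alleles cannot be told apart.

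In DIP2C-/- against parental cells the log2 fold change of DIP2C was -1.71 (SE 0.25, 95% interval -2.27 to -1.15), with an adjusted p of 0.0998 in edgeR's quasi-likelihood test. That was the 6th smallest p of 15532 genes tested, in a contrast that called 1 gene (0.00644%). In DIP2C+/- against parental cells the log2 fold change was -0.60 (SE 0.20, interval -1.04 to -0.16) with an edgeR adjusted p of 0.386, where 15 genes were called (0.0966%). Over all 7 clones it was -0.92 (SE 0.19, interval -1.33 to -0.50) with an edgeR adjusted p of 0.132, where 28 genes were called (0.18%). All 7 clones lay below both parental libraries, as did 861 of the genes tested (5.54%). The exact two-sided permutation test gave p = 0.0556 over the 7 clones and p = 0.0476 over the 5 DIP2C+/- clones, the latter the smallest that 2 against 5 libraries allow.

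With 1 library left out, DIP2C passed in edgeR only without clone H9-A4, the DIP2C+/- clone with the highest DIP2C level. Without it, DIP2C fell by 1.71 on the log2 scale in DIP2C-/- (edgeR adjusted p = 0.00103), the same fall as with all 9 libraries. In that fit DIP2C fell by 0.71 in DIP2C+/- (edgeR adjusted p = 0.0285) and by 1.04 over the remaining clones (edgeR adjusted p = 0.00216). The genes called then numbered 733 (4.76%), 1224 (7.95%) and 1378 (8.95%) of 15390 tested in these contrasts. DESeq2 on all 9 libraries called DIP2C in DIP2C-/- with an adjusted p of 7.76e-07 and over all clones with one of 0.00379, but not in DIP2C+/- against parental cells, where it was 0.181. It called 1.9%, 1.96% and 1.23% of all genes in these contrasts. The fit of only the DIP2C-/- and parental libraries called DIP2C at -1.72 (edgeR adjusted p = 0.000282), along with 12.6% of the genes tested.

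DIP2A, the member described as an FSTL1 receptor, was at 55.5 and 61.2 CPM in parental cells. It was at 74.3 CPM in E3 and 83.0 in C10, the DIP2C-/- clones. In DIP2C+/- clones it was at 90.3 CPM in F6-A7, 65.8 in H9-A4, 69.0 in A9-A12, 70.5 in G1-A5 and 79.4 in A6-C9. All 7 clones were above both parental libraries, and H9-A4 was the lowest of them. The DIP2C-/- clones lay within the range of the DIP2C+/- clones.

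The DIP2A means were 58.3 ± 4.06 CPM (SD, n = 2) in parental cells, 78.6 ± 6.12 (SD, n = 2) in DIP2C-/- and 75.0 ± 9.94 (SD, n = 5) in DIP2C+/- clones. These are 135% and 129% of the parental mean, with single clones between 113% and 155%. The log2 fold change was 0.43 (SE 0.18, interval 0.03 to 0.83) in DIP2C-/- and 0.36 (SE 0.15, interval 0.02 to 0.70) in DIP2C+/-. Over all 7 clones it was 0.38 (SE 0.15, interval 0.06 to 0.71), a 1.30-fold difference with an interval of 1.04-fold to 1.63-fold. The edgeR adjusted p was 0.373, 0.412 and 0.327 in these contrasts, so none passed. The permutation test over the 7 clones gave an exact two-sided p of 0.0278, the smallest that 2 against 7 libraries allow, and over the 5 DIP2C+/- clones an exact p of 0.0952.

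DIP2B, the member with the most reads, was at 108 and 107 CPM in parental cells. It was at 132 CPM in E3 and 153 in C10. In DIP2C+/- clones it was at 126 CPM in F6-A7, 116 in H9-A4, 147 in A9-A12, 152 in G1-A5 and 159 in A6-C9. As for DIP2A, every clone was above both parental libraries, H9-A4 was the lowest, and the DIP2C-/- clones lay within the range of the others.

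The DIP2B means were 107 ± 0.792 CPM (SD, n = 2) in parental cells, 142 ± 15.1 (SD, n = 2) in DIP2C-/- and 140 ± 18.5 (SD, n = 5) in DIP2C+/- clones. They amount to 132% and 130% of the parental mean, with single clones between 108% and 148%. The log2 fold change was 0.40 (SE 0.18, interval 0.00 to 0.81) in DIP2C-/-, 0.38 (SE 0.16, interval 0.04 to 0.73) in DIP2C+/- and 0.39 (SE 0.15, interval 0.06 to 0.72) over all clones. The last is a 1.31-fold difference with an interval of 1.04-fold to 1.65-fold. The edgeR adjusted p was 0.394, 0.411 and 0.327. The exact permutation p was 0.0278 over the 7 clones and 0.0952 over the 5 DIP2C+/- clones. In all, 6 permutation tests were made on the 3 genes, and their p-values are not adjusted for that number.

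**Figure D1:**
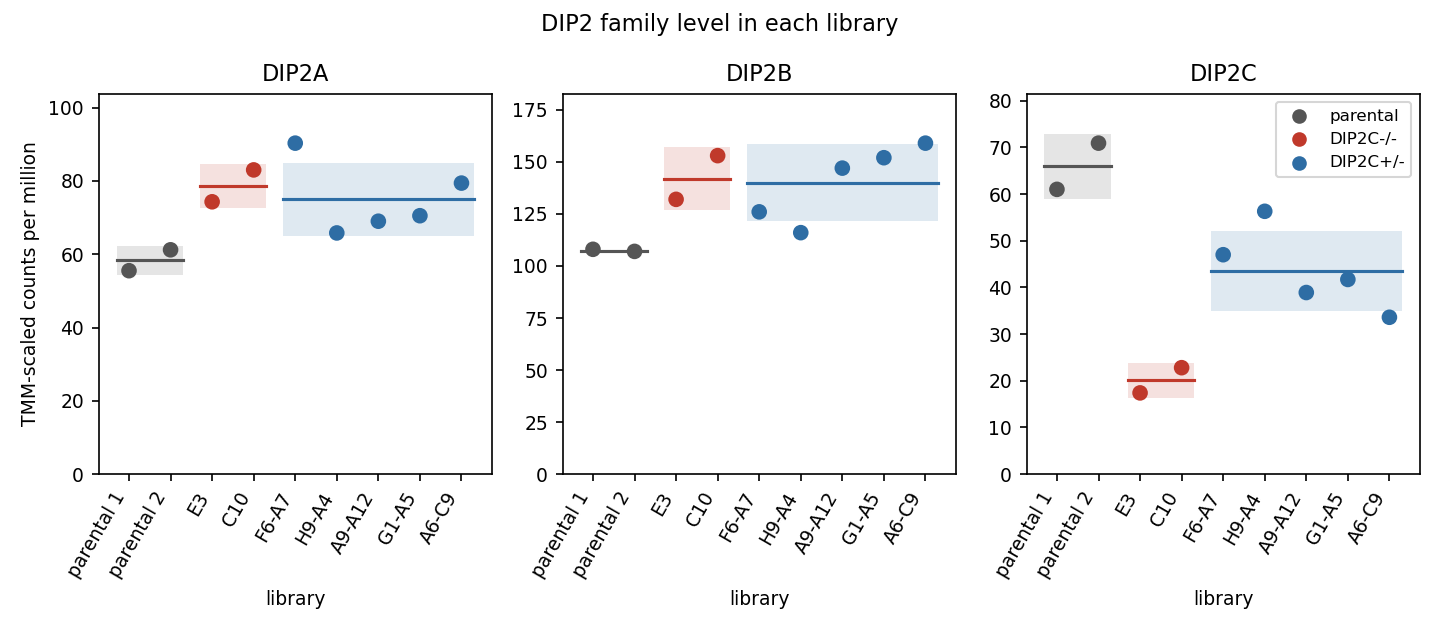
TMM-scaled CPM (vertical axis, from 0, a separate scale for each gene) of DIP2A, DIP2B and DIP2C in each of the 9 libraries (horizontal axis). Points are libraries coloured by genotype, lines are group means and bands are 1 SD. All 7 knockout clones sit above both parental libraries for DIP2A and DIP2B and below both for DIP2C, and H9-A4 is the clone nearest to parental cells in all 3 panels.

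The position of DIP2A and DIP2B above parental cells was shared by many genes. All 7 clones were above both parental libraries for 841 of the 15532 genes tested (5.41%), 2 of which are DIP2A and DIP2B. In the contrast of all clones, 19.1% of genes had a larger log2 fold change than DIP2A and 18.9% a larger one than DIP2B. In DIP2C-/- alone these shares were 21.1% and 22.3%. For DIP2C, 1.81% of genes had a lower log2 fold change in DIP2C-/- and 8.5% in DIP2C+/-. The median log2 fold change of all genes was 0.02 in these contrasts. Thus the DIP2C difference in DIP2C-/- stood near the edge of the distribution and those of the paralogs well within it.

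DIP2A and DIP2B did not pass in any of 16 alternative fits against parental cells. Their log2 fold changes over all clones stayed between 0.31 and 0.46 for DIP2A and between 0.36 and 0.43 for DIP2B. Without H9-A4 they were 0.41 and 0.43, with edgeR adjusted p-values of 0.0994 and 0.0657, the smallest over the alternatives for this contrast.

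The clones with fewer DIP2C transcripts were compared with each other by genotype. The log2 fold change of DIP2C+/- against DIP2C-/- was 1.11 for DIP2C (SE 0.22, interval 0.62 to 1.60), a 2.16-fold higher level with an interval of 1.54-fold to 3.03-fold. Its p of 0.000425 was the 4th smallest of all genes in edgeR's test, but the adjusted p was 0.878. No gene passed in this contrast (0.0%), while 865 genes had an unadjusted p under 0.05, and DESeq2 called 6 genes (0.0386%), DIP2C among them with an adjusted p of 0.0061. For DIP2A the log2 fold change was -0.07 (interval -0.40 to 0.26) and for DIP2B -0.02 (interval -0.36 to 0.31), with edgeR adjusted p-values of 0.97 and 0.993. As folds, the intervals run from 0.758-fold to 1.20-fold for DIP2A and from 0.779-fold to 1.24-fold for DIP2B, and a difference of the paralogs between the clone genotypes was not detectable with these libraries.

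**Figure D2:**
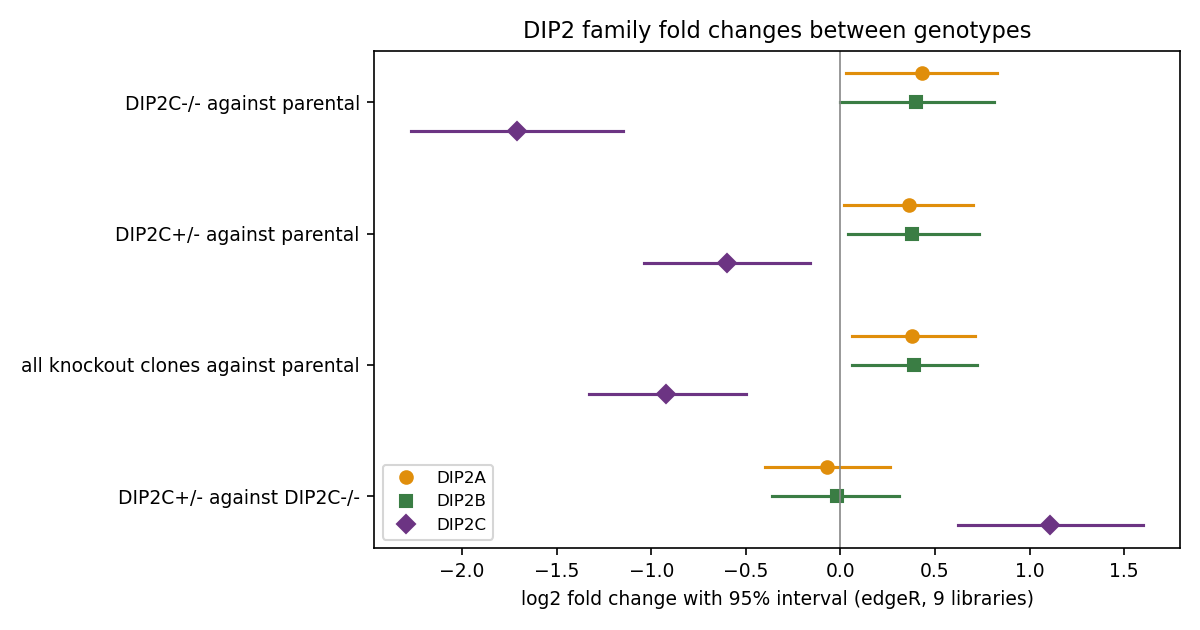
Log2 fold change of DIP2A, DIP2B and DIP2C (horizontal axis) in each of 4 contrasts (vertical axis), from edgeR on all 9 libraries, with 95% intervals as bars. The DIP2C intervals lie below 0 in the 3 contrasts with parental cells and above 0 for DIP2C+/- against DIP2C-/-, whereas the DIP2A and DIP2B points lie between 0.36 and 0.43 against parental cells and at -0.07 and -0.02 between the clone genotypes.

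Levels of different genes can be set side by side only per length. Divided by the canonical transcript length, DIP2B was the highest of the 3 in parental cells, at 12.4 and 12.3 CPM per kb. DIP2A, at 7.55 and 8.33 CPM per kb, and DIP2C, at 7.73 and 8.99, overlapped and could not be ordered. In every knockout clone the order was DIP2B, DIP2A, DIP2C. DIP2C made up 27.9% and 30.4% of the family's level per kb in parental cells. Its share was 8.05% in E3 and 9.11% in C10, and 12.8% to 24.3% in the DIP2C+/- clones, with H9-A4 the highest.

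The level summed over the family bears on whether DIP2A and DIP2B made up for the missing DIP2C transcripts. It was 27.7 and 29.6 CPM per kb in parental cells, 27.4 in E3 and 31.7 in C10. The DIP2C+/- clones had 32.7 in F6-A7, 29.4 in H9-A4, 31.2 in A9-A12, 32.4 in G1-A5 and 33.4 in A6-C9. The DIP2C-/- clones lay on either side of the parental libraries. Of the DIP2C+/- clones, 4 of 5 lay above both parental libraries and H9-A4 lay between them.

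In means, the sum was 28.6 ± 1.35 CPM per kb (SD, n = 2) in parental cells, 29.6 ± 3.06 (SD, n = 2) in DIP2C-/- and 31.8 ± 1.57 (SD, n = 5) in DIP2C+/- clones, or 103% and 111% of parental. In DIP2C-/- clones DIP2C was lower by 5.81 CPM per kb and DIP2A and DIP2B together higher by 6.76. In DIP2C+/- clones DIP2C was lower by 2.84 and the paralogs together higher by 6.0. The difference in the paralogs was thus of similar size in both genotypes, while that in DIP2C was not. Divided by coding length instead, the sums were 104% and 111% of parental. These sums are given without a test, and they count transcripts, not protein.

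**Figure D3:**
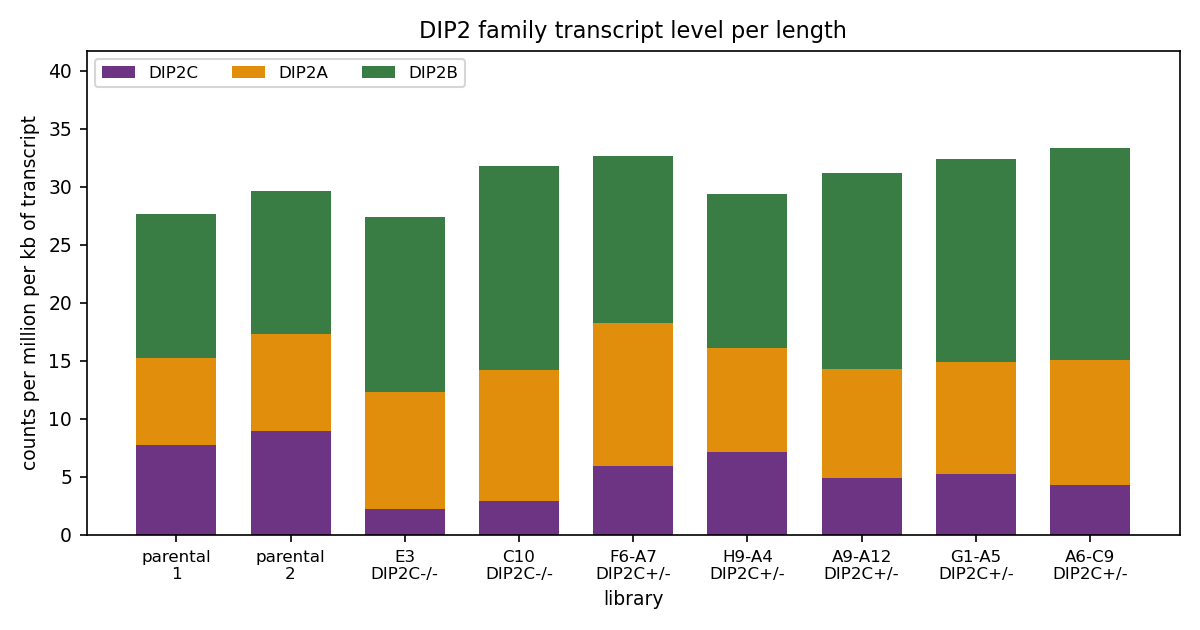
CPM per kb of canonical transcript (vertical axis, from 0) in each of the 9 libraries (horizontal axis), stacked by gene. The DIP2C part shrinks from 7.73 and 8.99 in parental cells to 2.21 and 2.89 in DIP2C-/- clones, while the full height stays between 27.4 and 33.4 in all libraries.

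Across the 9 libraries the log2 CPM of DIP2A and DIP2B had a Pearson correlation of 0.626, and DIP2C had one of -0.572 with DIP2A and -0.644 with DIP2B. These values describe libraries that share the split between parental cells and clones. By likeness to DIP2A, DIP2B ranked 1148 among the 9586 genes that averaged 10 CPM or more. Among the 5 genes most like DIP2A were ARHGAP39 (r = 0.954), the lysosomal alpha-glucosidase GAA (0.945), GANC (0.943) and DOCK6 (0.928). The genes most like DIP2B were MIR22HG (0.972), TCAIM (0.971), POP1 (0.965), ZER1 (0.963) and BAZ2B (0.962). Those most like DIP2C were the carbonyl reductase CBR3 (0.974), the autophagy protein ATG9A (0.967), RER1 (0.959), DMKN (0.953) and CIB2 (0.947). CBR3 was at 18.4 CPM in parental cells, 6.34 in DIP2C-/- and 11.6 in DIP2C+/- clones.

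The promoters are shown because the paralogs were compared as genes that might move together. The 250 bases before the annotated start of each canonical transcript were read 5′ to 3′ from the hg19 reference. Capitals mark GC boxes (GGGCGG or, on the other strand, CCGCCC) and CCAAT boxes (CCAAT or ATTGG), searched on both strands, and no match in these windows overlaps another.
DIP2A promoter, chr21:47878554-47878803, plus strand: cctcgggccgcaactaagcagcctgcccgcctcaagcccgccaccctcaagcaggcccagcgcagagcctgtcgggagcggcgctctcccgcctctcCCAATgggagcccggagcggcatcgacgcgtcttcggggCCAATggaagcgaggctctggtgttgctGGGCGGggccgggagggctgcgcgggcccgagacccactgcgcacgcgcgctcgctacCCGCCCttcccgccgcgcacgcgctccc
DIP2B promoter, chr12:50898518-50898767, plus strand: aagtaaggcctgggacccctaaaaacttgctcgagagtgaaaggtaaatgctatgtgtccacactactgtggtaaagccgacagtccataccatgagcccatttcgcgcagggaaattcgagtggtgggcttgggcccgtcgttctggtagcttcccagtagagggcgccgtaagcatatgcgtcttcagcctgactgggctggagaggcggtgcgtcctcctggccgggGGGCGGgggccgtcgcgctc
DIP2C promoter, chr10:735609-735858, minus strand: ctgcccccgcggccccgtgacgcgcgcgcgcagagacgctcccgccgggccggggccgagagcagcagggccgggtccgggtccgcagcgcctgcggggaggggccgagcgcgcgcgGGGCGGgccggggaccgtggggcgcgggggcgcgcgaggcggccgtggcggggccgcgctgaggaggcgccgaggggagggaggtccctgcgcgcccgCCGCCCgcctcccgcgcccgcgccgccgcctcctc
The DIP2C window holds 49 CpG sites with 87.2% G and C, more sites than 99.7% of 17465 protein-coding genes measured. DIP2A has 32 sites (74.8% G and C) and DIP2B 17 (59.6%), close to the median of 19. DIP2A and DIP2C have 2 GC boxes and DIP2B has 1, a motif found in 60.5% of windows. DIP2A alone has CCAAT boxes, 2 of them, where 34.2% of windows have at least 1. The matches are letters in a window and were not tested as binding sites.

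Genes next to the DIP2 genes were examined because a difference over a chromosome segment would reach neighbours too. Up to 5 measured genes on each side were taken. Against parental cells none of the 18 neighbours tested (6 for DIP2A, 7 for DIP2B and 5 for DIP2C) passed edgeR's test in any contrast. At an unadjusted p under 0.05, 1 neighbour of DIP2A was lower in DIP2C+/- and over all clones, and 1 of DIP2B was higher in DIP2C+/-. Of all genes tested, 12.7% had such a p in DIP2C-/-, 11.6% in DIP2C+/- and 13.4% over all clones. DESeq2 called none of the neighbours.

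The median log2 fold change over all clones was 0.03 for neighbours of DIP2A, 0.03 for those of DIP2B and 0.19 for those of DIP2C, against 0.02 for all genes. PCNT, a scaffold of the centrosome next to DIP2A, was the lowest at -0.57 (SE 0.22, edgeR adjusted p = 0.324). Without H9-A4 it fell by 0.70 on the log2 scale (edgeR adjusted p = 0.00807), in a contrast that then called 8.95% of all genes tested. Beside DIP2B the values ran from -0.31 in METTL7A to 0.32 in LIMA1, which encodes an actin-binding protein. Beside DIP2C they ran from -0.20 in ZMYND11, a reader of histone methylation, to 0.32 in IDI2-AS1. None of the tested neighbours of DIP2C lay below -0.20 over all clones, and ZMYND11 was at -0.23 in DIP2C+/-.

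The means of the DIP2C-/- clones hide a split between them for ZMYND11, LARP4B, GTPBP4 and IDI2, all neighbours of DIP2C. ZMYND11 was at 57.4 CPM in E3 and 96.5 in C10, against 90.1 and 78.4 in parental cells. LARP4B was at 169 CPM in E3 and 270 in C10, against 209 and 225 in parental cells. GTPBP4 was at 265 CPM in E3 and 435 in C10, against 292 and 277. For IDI2 the levels were 11.4 CPM in E3 and 13.8 in C10, against 12.1 and 12.6. Each of these neighbours lay below both parental libraries in E3 and above both in C10, whereas DIP2C lay below both in each clone. The share of all genes with such a split was not counted. ZMYND11, LARP4B, GTPBP4 and IDI2 were singled out after their values were seen. IDI2-AS1, the remaining tested neighbour of DIP2C, did not show the split. It was at 1.03 CPM in E3 and 0.985 in C10, between its parental values of 1.27 and 0.888.

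DIP2A-IT1, a transcript within an intron of DIP2A, was at 0.0522 to 0.71 CPM and PRR26, listed today as DIP2C-AS1 on the opposite strand of DIP2C, at 0.623 to 2.72 CPM. How reads of either gene were separated from those of its host is not given in the sources used here, nor whether the counting used strand.

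DMAP1, the namesake of the N-terminal DIP2 domain, was at 24.7 and 27.4 CPM in parental cells and at 23.8 and 27.9 CPM in DIP2C-/- clones. In the DIP2C+/- clones it lay between 21.7 and 38.5 CPM. Its log2 fold change over all clones was 0.08 (SE 0.21, edgeR adjusted p = 0.917). Of the 21 subunits of the TIP60 and SRCAP complexes that were listed, all were tested and none passed edgeR's test or DESeq2 in any contrast with parental cells. At an unadjusted p under 0.05, 2 were higher and 1 lower in DIP2C-/-, none had such a p in DIP2C+/-, and 1 was higher over all clones, beside 12.7%, 11.6% and 13.4% of all genes. Their median over all clones was 0.04. TRRAP, the scaffold of the TIP60 complex, was the lowest at -0.49 and EPC1 the highest at 0.38. Without H9-A4, TRRAP fell by 0.67 (edgeR adjusted p = 0.023) and was the only subunit of 21 to pass, beside 8.95% of all genes.

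DNMT1, the maintenance DNA methyltransferase, was at 312 and 375 CPM in parental cells, 394 and 472 in DIP2C-/- and 300 to 484 in DIP2C+/- clones. Of the clones, 6 of 7 lay above both parental libraries and G1-A5, at 300 CPM, below both. Its log2 fold change over all clones was 0.28 (SE 0.18, edgeR adjusted p = 0.516). None of the 8 genes of maintenance methylation passed edgeR's test or DESeq2 against parental cells. At an unadjusted p under 0.05, 1 of the 8 was lower in DIP2C+/- against parental cells, beside 11.6% of all genes, and none had such a p in DIP2C-/- or over all clones. Their median over all clones was -0.13, from -0.32 in the histone deacetylase HDAC2 to 0.28 in DNMT1. HELLS, a chromatin remodeller needed for DNA methylation, was the lowest in DIP2C+/-, at -0.35 (SE 0.14, edgeR adjusted p = 0.407).

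FSTL1, the ligand reported for DIP2A, was close to the floor of detection, at 0.275 and 0.157 CPM in parental cells, 0.645 and 0.518 in DIP2C-/- and 0.17 to 0.548 in DIP2C+/- clones. Of the 8 genes of FSTL1 and bone morphogenetic protein signalling, 7 were tested and none passed edgeR's test or DESeq2 against parental cells. At an unadjusted p under 0.05, 1 was higher in each genotype against parental cells, and 2 over all clones, beside 12.7%, 11.6% and 13.4% of all genes. The median over all clones was 0.55, but 4 of the 7 had a mean under 1 CPM in parental cells. BMP4, a secreted ligand, was the highest at 2.61 (SE 1.14, edgeR adjusted p = 0.358), from a parental mean of 0.505 CPM to 3.33 in DIP2C-/- and 3.05 in DIP2C+/- clones. The DIP2C+/- clones ran from 0.17 CPM in H9-A4, below both parental libraries (0.331 and 0.679), to 5.79 CPM in F6-A7. The receptor BMPR1A was the lowest at -0.21.

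Enzymes with an AMP-binding domain, the fold shared with the C-terminal part of DIP2 proteins, were examined as 19 genes, of which 17 were tested. None passed edgeR's test or DESeq2 in a contrast with parental cells. At an unadjusted p under 0.05, 2 were higher and 1 lower in DIP2C-/-, 3 were higher in DIP2C+/-, and 3 were higher and 1 lower over all clones. Of all genes, 12.7%, 11.6% and 13.4% had such a p. In 3 of the 17 all clones were above both parental libraries, beside 5.41% of all genes tested. Their median over all clones was 0.16. AASDH was the highest at 0.83 (SE 0.30, edgeR adjusted p = 0.321), and the acyl-CoA synthetase SLC27A3 the lowest at -0.89 (SE 0.34, edgeR adjusted p = 0.327). Without H9-A4, SLC27A3 fell by 1.10 (edgeR adjusted p = 0.0236), and the malonyl-CoA synthetase ACSF3, named after its value was seen, rose by 0.68 (edgeR adjusted p = 0.026). In that contrast 1 of the 17 passed as higher and 1 as lower, beside 8.95% of all genes tested.

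**Figure D4:**
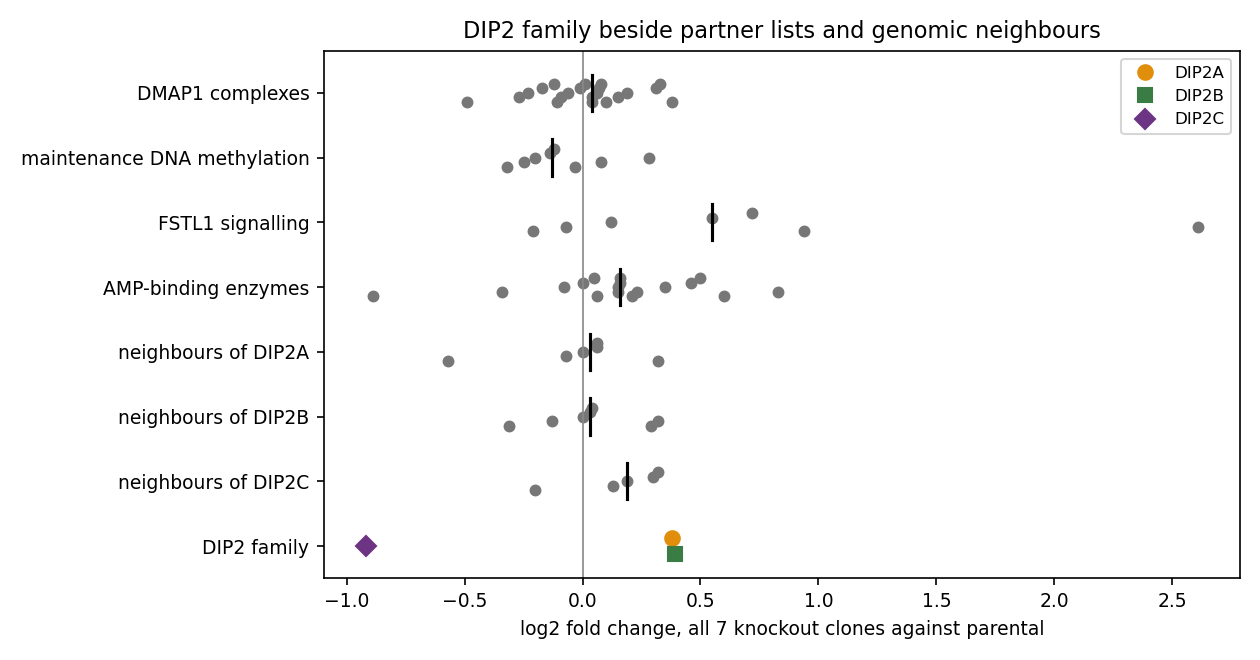
Log2 fold change of all 7 knockout clones against parental cells (horizontal axis) for each tested gene of 4 lists and of the neighbours of each member (grey points, vertical black line at the list's median), with DIP2A, DIP2B and DIP2C in the bottom line. DIP2C, at -0.92, lies below every point shown, and DIP2A at 0.38 and DIP2B at 0.39 lie among the points of the lists.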

How the data were processed

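RNA was sequenced on the Ion Proton system. The authors aligned reads to hg19 with TopHat2 (version 2.0.4 per the labels) and quantified genes with Cufflinks (2.2.1 per the labels, while the methods of the study give another version). The deposited values are an estimated count per gene symbol, made by the authors from Cufflinks output in a way that is not given in the sources used here.

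Values were rounded to whole numbers and fitted in edgeR 4.0.16 (R 4.3.3) with all 9 libraries, filterByExpr (15532 genes), TMM factors, 1 coefficient per genotype and the quasi-likelihood F test, with Benjamini-Hochberg adjustment over all genes and a threshold of 0.05. Intervals are 95%. DESeq2 1.42.0 (Wald test) was an alternative. Exact permutation tests used mean log2 CPM. Genes were matched by symbol to GENCODE 44 on GRCh37, which shares the coordinates of hg19, and 20507 were found. The fit was tested on simulated counts. Correlations used log2(CPM + 0.05).

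The members, lists and named genes were chosen with earlier results of these data known. Named were the 3 members, DMAP1, DNMT1 and FSTL1, the lowest and highest gene of each list, and the 5 genes most correlated with each member, except items that are not reported here. The labels name no batch. Intervals and floors cover counting error and the spread between these libraries only.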

Additional observations from a re-analysis of the deposited data

How the results depend on the processing

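Each of the 3 genes was refitted in 4 contrasts under 16 alternatives. Against parental cells the direction stayed in all of them, and DIP2A and DIP2B passed in none. DIP2C passed with DESeq2 in DIP2C-/- (-1.71), over all clones (-0.92) and between clone genotypes (1.11), and in DIP2C-/- when only the compared groups were fitted (-1.72). With 1 library left out, DIP2C ranged from -1.96 to -1.52 in DIP2C-/-, -0.71 to -0.48 in DIP2C+/- and -1.04 to -0.75 over all clones, and passed only without H9-A4. Between clone genotypes the small differences of the paralogs turned sign: DIP2A ranged from -0.15 to 0.06 and DIP2B from -0.13 to 0.14 with 1 library left out, and DIP2B was 0.01 without a filter on low counts.

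The number of genes called depended more on the fit. In DIP2C-/- it was 1, against 295 with DESeq2, 3 without a filter, 0 with at least 10 counts in every library (1784 at an unadjusted p under 0.05), 1807 with only the compared groups and 1 to 733 with 1 library left out. In DIP2C+/- it was 15, against 191 with DESeq2, 8 with at least 10 counts, 8 with only the compared groups and 1 to 1224 with 1 library left out. Over all clones it was 28, against 304 with DESeq2, 11 with at least 10 counts and 1 to 1378 with 1 library left out. Between clone genotypes it was 0, against 6 with DESeq2, 1 with only the compared groups and 0 to 3 with 1 library left out. The highest counts against parental cells with 1 library left out were those without H9-A4, and the cause was not tested. No paired analysis was possible because the labels match no clone to a parental library. The replicate numbers assigned here only name the libraries.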
